A study of Rattus norvegicus with 17 samples.

Results

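The clotting genes described here are 10 genes that liver parenchymal cells (hepatocytes) express for secretion into plasma: F2, F7, F9, F10, F11, F12, Proc, Serpinc1, Fga and Fgb. A probe set of the array counted as a member when the platform annotation gave it exactly 1 of these symbols. Of the 10 genes, 8 had such a probe set, 11 probe sets in all of 31042 that were not controls. F7 and F11 had none with their symbol in the annotation used here, and they were not analysed. Of the 11 probe sets, 9 passed the filter on dim probe sets, which asks for an intensity above 15.5, a log2 value of 3.95, on 5 or more arrays. The study profiled rat liver on Affymetrix Rat Genome 230 2.0 arrays, with 1 array for each of 17 rats. The 6 sham rats had an abdominal incision without ligation, and saline was infused under the skin by an osmotic pump. In the 6 ligated saline rats the bile duct was tied off under the same infusion, and in the 5 ligated ghrelin rats it was tied off under recombinant ghrelin, given at 10 µg per kg per day by the same kind of pump. Ghrelin is a peptide hormone made mainly by the stomach. All rats were operated on at week 7 and killed at week 9, so the livers were seen 2 weeks after surgery. No sham rat received ghrelin, and the sources used here do not give strain or sex. Bile duct ligation is a surgical model of cholestasis in which bile ducts multiply and the liver scars. Its samples can therefore hold more cells other than hepatocytes, and the arrays counted no cells.

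The blood clotting cascade ends when thrombin, the active form of prothrombin, cuts fibrinogen into fibrin. Prothrombin and factors VII, IX and X, together with the anticoagulant protein C, carry glutamates that a vitamin K dependent carboxylase modifies in the hepatocyte before secretion. Vitamin K is fat soluble and its uptake needs bile, so cholestasis is known for low activity of these proteins. Fibrinogen is instead an acute phase protein, whose genes interleukin-6 can switch on in hepatocytes, and hepatocyte nuclear factors and C/EBP proteins are known to drive many clotting genes in liver. The arrays measured mRNA, and neither protein carboxylation nor clotting activity.

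The 250 bases before the annotated start of 4 members are shown because these genes mark the range of the results: Fga and Fgb, whose brightest probe sets were not called in any of the 3 comparisons as deposited, F9, which was lower in both ligated groups, and F12, which had the largest fall after ligation. The sequences are RefSeq's, on the rat assembly GRCr8, written 5′ to 3′ on the strand of the gene. Capitals mark matches, on either strand, to 4 motifs: CTGGGAA (interleukin-6 response core), TTNNGNAAT (C/EBP), GTTAAT (HNF1 half-site) and CAAAGTNCA (HNF4 core). For Fga the first of 2 annotated starts is shown.
Fga, chr2:170671919-170672168, plus strand: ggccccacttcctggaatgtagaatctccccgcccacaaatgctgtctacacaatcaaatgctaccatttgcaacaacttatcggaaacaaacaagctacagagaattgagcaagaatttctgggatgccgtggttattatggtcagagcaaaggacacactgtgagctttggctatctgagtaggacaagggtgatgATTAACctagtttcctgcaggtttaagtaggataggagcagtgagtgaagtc
Fgb, chr2:170700876-170701125, minus strand: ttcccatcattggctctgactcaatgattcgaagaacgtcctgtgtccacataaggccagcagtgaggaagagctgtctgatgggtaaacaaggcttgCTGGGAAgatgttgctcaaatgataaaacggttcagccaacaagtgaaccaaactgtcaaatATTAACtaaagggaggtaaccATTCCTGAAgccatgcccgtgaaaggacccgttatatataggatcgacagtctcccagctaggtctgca
F9, chrX:143388392-143388641, plus strand: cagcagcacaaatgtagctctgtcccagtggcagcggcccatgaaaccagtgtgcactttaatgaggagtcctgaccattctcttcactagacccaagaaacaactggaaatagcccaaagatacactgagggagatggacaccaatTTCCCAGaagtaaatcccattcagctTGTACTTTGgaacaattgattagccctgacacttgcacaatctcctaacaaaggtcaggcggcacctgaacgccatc
F12, chr17:9212569-9212818, plus strand: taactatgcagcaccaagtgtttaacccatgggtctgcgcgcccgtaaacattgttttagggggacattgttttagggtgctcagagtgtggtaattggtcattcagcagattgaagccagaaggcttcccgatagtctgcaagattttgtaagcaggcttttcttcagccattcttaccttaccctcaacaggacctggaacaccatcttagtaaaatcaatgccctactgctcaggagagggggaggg
Among all 33469 windows of this length in the table, 9.56% held CTGGGAA, 10.9% held TTNNGNAAT, 6.45% held GTTAAT and 1.06% held CAAAGTNCA. All 10 members had a window. CTGGGAA occurred in 3 of them (F9, Fgb and Serpinc1), TTNNGNAAT in 2 (F10 and Fgb), GTTAAT in 4 (F2, Fga, Fgb and Proc) and CAAAGTNCA in 1 (F9). Fgb held 3 of the motifs, with CTGGGAA ending 146 bases, the HNF1 half-site 85 bases and the C/EBP match 61 bases before the start. F12 held none of the 4 strings in this window. With only Fga and Fgb not called after ligation, these matches cannot show whether the motifs separate such genes from those that fell. The HNF1 half-site occurred in both, and also in F2 and Proc, which fell. A match is a stretch of letters and was not tested for binding.

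Ligation under saline lowered the mRNA of 6 of the 8 measured members (F2, F9, F10, Proc, F12 and Serpinc1) by 1.14-fold to 1.55-fold, and for all 6 no ligated saline array reached the lowest sham array. Both fibrinogen chains, Fga and Fgb, were not called. Over all 9736 genes with a kept probe set, 27.2% were called lower and 18.6% were lower without overlap between the groups. No member was called higher, against 37.5% of all genes. The median log2 change was -0.32 over the members and 0.07 over all genes. A gene was called at an adjusted p under 0.05, by limma with Benjamini-Hochberg adjustment over 15965 probe sets, and each gene is given by its brightest kept probe set. All values below are log2 intensities or differences between them. In whole liver, fewer hepatocytes and less mRNA per hepatocyte cannot be told apart.

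**Figure D1:**
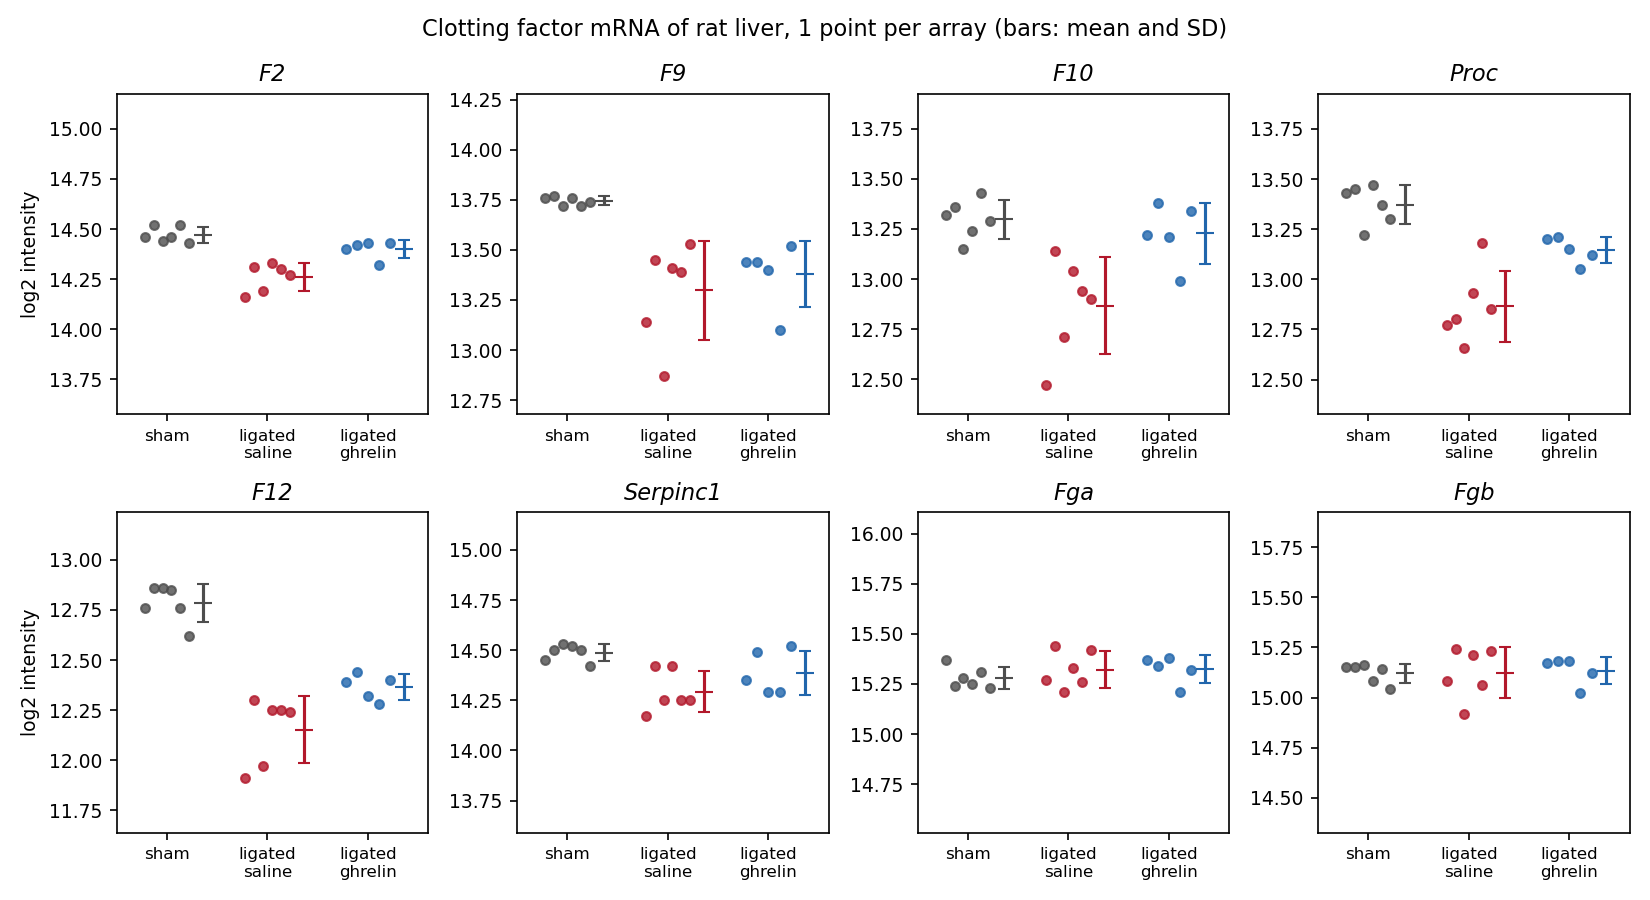
Log2 intensity of the 8 measured clotting genes on each of the 17 arrays, with 1 point per rat and bars for the mean and SD of each group. Every panel spans the same height of 1.6 log2 units around its own mean. The 6 ligated saline points lie below all 6 sham points for F2, F9, F10, Proc, F12 and Serpinc1. For Fga and Fgb they spread both above and below the sham points.

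F2 encodes prothrombin. The 6 sham arrays ran from 14.43 to 14.52 with a median of 14.46, and the 6 ligated saline arrays from 14.16 to 14.33 with a median of 14.29. The ligated ghrelin arrays stood at 14.40, 14.42, 14.43, 14.32 and 14.43. All ligated saline arrays were thus below all sham arrays, and 4 of the 5 ghrelin arrays were above every ligated saline array. The mean fell from 14.47 ± 0.0383 (SD, n = 6) to 14.26 ± 0.0699 (n = 6) and was 14.40 ± 0.0431 (n = 5) with ghrelin. Ligated saline was 0.21 ± 0.0536 (SE) below sham, a log2 change of -0.21 (limma adjusted p = 0.00262). With quantile normalization of the arrays this change was -0.119 and was no longer called (limma adjusted p = 0.0706).

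F9 encodes factor IX, the haemophilia B protein, which with factor VIII activates factor X. Sham arrays lay close together, from 13.72 to 13.77 with a median of 13.75. Ligated saline arrays ran from 12.87 to 13.53 with a median of 13.40, and ligated ghrelin arrays stood at 13.44, 13.44, 13.40, 13.10 and 13.52. All 11 ligated arrays were below all 6 sham arrays, and the ligated groups covered each other. The mean fell from 13.75 ± 0.023 (SD, n = 6) to 13.30 ± 0.247 (n = 6) and was 13.38 ± 0.161 (n = 5) with ghrelin, and the spread was several times wider in ligated livers. The change from sham to ligated saline was -0.45 ± 0.102 (SE, limma adjusted p = 0.00112).

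F10 encodes factor X, which in its active form converts prothrombin to thrombin. Its sham arrays ran from 13.15 to 13.43 with a median of 13.30, and its ligated saline arrays from 12.47 to 13.14 with a median of 12.92. The ligated ghrelin arrays stood at 13.22, 13.38, 13.21, 12.99 and 13.34. The highest ligated saline array fell just short of the lowest sham array, and 4 of the 5 ghrelin arrays lay inside the sham range. The mean fell from 13.30 ± 0.100 (SD, n = 6) to 12.87 ± 0.242 (n = 6) and was 13.23 ± 0.155 (n = 5) with ghrelin. The change from sham to ligated saline was -0.43 ± 0.104 (SE, limma adjusted p = 0.00183).

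Proc encodes protein C, the vitamin K dependent anticoagulant that, once activated, cuts factors V and VIII. Sham arrays ran from 13.22 to 13.47 with a median of 13.40, and ligated saline arrays from 12.66 to 13.18 with a median of 12.83. Ligated ghrelin arrays stood at 13.20, 13.21, 13.15, 13.05 and 13.12. Both ligated groups lay below every sham array, and the ghrelin arrays sat in the upper part of the ligated saline range or just above it. Means were 13.37 ± 0.0985 (SD, n = 6), 12.87 ± 0.177 (n = 6) and 13.15 ± 0.0673 (n = 5) in sham, ligated saline and ligated ghrelin. The change from sham to ligated saline was -0.51 ± 0.0811 (SE, limma adjusted p = 4.46e-05).

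F12 encodes factor XII, the protease that starts the contact pathway and does not depend on vitamin K. Sham arrays ran from 12.62 to 12.86 with a median of 12.81, and ligated saline arrays from 11.91 to 12.30 with a median of 12.25. Ligated ghrelin arrays stood at 12.39, 12.44, 12.32, 12.28 and 12.40. Every ligated array was below every sham array, and 4 of the 5 ghrelin arrays were above every ligated saline array. The mean fell from 12.79 ± 0.0938 (SD, n = 6) to 12.15 ± 0.167 (n = 6), the largest fall among the 8 members, and was 12.37 ± 0.0637 (n = 5) with ghrelin. The change from sham to ligated saline was -0.63 ± 0.0782 (SE, limma adjusted p = 3.2e-06).

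Serpinc1 encodes antithrombin, the plasma inhibitor of thrombin and factor Xa, and it also does not depend on vitamin K. Sham arrays ran from 14.42 to 14.53 with a median of 14.50, and ligated saline arrays from 14.17 to 14.42 with a median of 14.25. Ligated ghrelin arrays stood at 14.35, 14.49, 14.29, 14.29 and 14.52. The highest ligated saline and the lowest sham array differed only past the second decimal, and 2 ghrelin arrays lay inside the sham range. The mean fell from 14.49 ± 0.0422 (SD, n = 6) to 14.29 ± 0.104 (n = 6) and was 14.39 ± 0.108 (n = 5) with ghrelin. The change of -0.19 ± 0.0655 (SE, limma adjusted p = 0.0164) was the smallest of the 6 that were called. It was lost with quantile normalization (-0.0835, limma adjusted p = 0.288) and with ligated saline arrays 1 and 3 left out (-0.153, limma adjusted p = 0.0889), a setting chosen after seeing the data.

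Fga and Fgb encode the alpha and beta chains of fibrinogen, the soluble precursor of the clot. Fga ran from 15.23 to 15.37 (median 15.27) in sham and from 15.21 to 15.44 (median 15.30) in ligated saline, and stood at 15.37, 15.34, 15.38, 15.21 and 15.32 with ghrelin. Fgb ran from 15.04 to 15.16 (median 15.14) in sham and from 14.92 to 15.24 (median 15.14) in ligated saline, and stood at 15.17, 15.18, 15.18, 15.02 and 15.12 with ghrelin. For both genes the ligated saline arrays reached above and below the sham range, and the ghrelin arrays lay among them. From sham to ligated saline Fga changed by 0.04 ± 0.0599 (SE, 95% interval -0.08 to 0.17, limma adjusted p = 0.54) and Fgb by 0.00 ± 0.0656 (SE, 95% interval -0.14 to 0.14, limma adjusted p = 0.976). With the medians of the arrays set equal, Fga stood at -0.145 (limma adjusted p = 0.0741) and Fgb at -0.187, which was called lower (limma adjusted p = 0.0393).

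Both fibrinogen chains were among the brightest signals of the array. Fga ranked between 6 and 16 and Fgb between 15 and 30 among the 31042 probe sets of an array, while the brightest probe set of each array lay between 15.79 and 15.92. A change can be compressed so near the top of the range, and the part of this in the fibrinogen values was not tested. F2 and Serpinc1, the next brightest members with sham means of 14.47 and 14.49, had the smallest called falls (-0.21 and -0.19). F12, the dimmest member at 12.79, had the largest (-0.63). The part of brightness in the size of the falls was not tested either. A second, dimmer Fga probe set ran from 12.48 to 13.15 in sham and from 12.92 to 13.68 in ligated saline, and stood at 13.65, 13.46, 13.91, 12.76 and 13.32 with ghrelin. It was higher by 0.39 ± 0.191 in ligated saline (SE, limma adjusted p = 0.0838, not called) and by 0.52 ± 0.2 in ligated ghrelin (SE, limma adjusted p = 0.0376, called) than in sham. The 2 Fga probe sets therefore disagreed on the call against sham, although their deviations from the group means went together (r = 0.82 over 17 arrays). The other 2 probe sets of Fgb stayed below the filter level on all arrays, between 2.19 and 3.59, and gave no usable value. Fgg, the gamma chain gene, is not a member but is listed next to Fga in the RefSeq annotation, and it changed by 0.06 ± 0.0563 (SE, limma adjusted p = 0.403).

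The difference between 2 genes within 1 array does not change when all values of an array are shifted by 1 amount, as when array medians are set equal; quantile normalization can change it, and the values here are as deposited. Relative to Fgb on the same array, F12 in ligated saline stood at a mean of -0.63 from sham on the log2 scale, with ligated saline arrays between -0.83 and -0.47 and ghrelin arrays between -0.53 and -0.39. Sham arrays lay between -0.08 and 0.10 on that measure, so both ligated groups stood clear of sham. F9 relative to Fgb lay between -0.67 and -0.30 in ligated saline and between -0.54 and -0.23 in ligated ghrelin, against -0.07 to 0.08 in sham. F10 relative to Fgb stood clear of sham in ligated saline (-0.79 to -0.28, against -0.19 to 0.12) and overlapped it in ligated ghrelin (-0.21 to 0.05). Fga relative to Fgb stayed between -0.07 and 0.13 on all 17 arrays. F2 relative to Fgb lay between -0.31 and -0.08 in ligated saline, just clear of sham at -0.07 to 0.04. Proc (-0.69 to -0.13, against -0.19 to 0.14) and Serpinc1 (-0.35 to -0.04, against -0.07 to 0.07) overlapped sham in ligated saline on that measure. Relative to Fga, Proc stood clear of sham in ligated saline (-0.74 to -0.18, against -0.16 to 0.13), and Serpinc1 again overlapped it. The members that stood clear relative to Fgb changed unequally with Fgb, which does not show that either fibrinogen gene was unchanged.

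Ghrelin infusion after ligation was not called to change any of the 8 members, either higher (1.76% of all genes) or lower (0.585%). All 8 differences were at or above 0, from 0.00 for Fga to 0.36 for F10, although those of F9, Fga and Fgb fell below 0 when ligated saline array 3 was left out. Their median was 0.12 against 0.01 over all genes. At an unadjusted p under 0.05, limma gave 4 members (F10, Proc, F12 and F2) and 2138 of 9736 genes. No member was higher without overlap between the groups, against 3.04% of all genes. Calls in this comparison depended on single arrays. Of all kept probe sets, 1.32% were called higher and 0.908% lower. Without ghrelin array 2 these shares were 0.132% and 0.0877%, and without ligated saline array 4 they were 2.18% and 1.91%. With ligated saline arrays 1 and 3 left out they were 0% and 0.0125%.

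F10 was 0.36 ± 0.11 (SE) higher with ghrelin than with saline after ligation (95% interval 0.13 to 0.59, limma adjusted p = 0.0803), and all 5 ghrelin arrays were above the ligated saline mean. It passed the threshold without ligated ghrelin array 4 (0.422, limma adjusted p = 0.0494). Over the alternatives its difference ran from 0.224 to 0.43 and its limma adjusted p from 0.0494 to 0.289. Proc was 0.28 ± 0.085 higher (SE, 95% interval 0.10 to 0.46, limma adjusted p = 0.0796), again on 5 of 5 arrays, and passed the threshold with array medians set equal (0.35, limma adjusted p = 0.0446). These were the members nearest to a call. F12 stood 0.21 higher (95% interval 0.04 to 0.39, limma adjusted p = 0.153) and F2 0.14 higher (95% interval 0.02 to 0.26, limma adjusted p = 0.171), both on 5 of 5 arrays. Over the alternatives Proc ran from 0.206 to 0.35, F12 from 0.106 to 0.28 and F2 from 0.0951 to 0.206. The alternatives include the fit with ligated saline arrays 1 and 3 left out. Serpinc1 differed by 0.10 (95% interval -0.05 to 0.24, limma adjusted p = 0.432) and F9 by 0.08 (95% interval -0.14 to 0.31, limma adjusted p = 0.699). Neither of these last genes had all its ghrelin arrays above the ligated saline mean: each had 4 of 5. For Fga and Fgb the intervals of the difference were -0.13 to 0.13 and -0.14 to 0.16. The second Fga probe set had a wider interval, -0.30 to 0.55 around a difference of 0.13.

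Against sham, ligated ghrelin livers were called lower for 3 of the 8 members (F9, Proc and F12) and higher for none, where 21.2% and 35.0% of all genes were called lower and higher. This comparison shares its arrays with both others. F9 changed by -0.37 ± 0.107 (SE, limma adjusted p = 0.00838), Proc by -0.23 ± 0.085 (SE, limma adjusted p = 0.0338) and F12 by -0.42 ± 0.082 (SE, limma adjusted p = 0.000423). Those 3 genes and F2 were lower without overlap on all 5 ghrelin arrays, which was so for 14.0% of all genes. For F2 the highest ghrelin and the lowest sham array, both 14.43, differed only past the second decimal. For Proc they were 13.21 and 13.22. F2 itself stood at -0.07 (95% interval -0.19 to 0.05, limma adjusted p = 0.285), was not called, and was at 0.0536 after quantile normalization. F10 differed from sham by -0.07 (95% interval -0.30 to 0.16, limma adjusted p = 0.606) and Serpinc1 by -0.10 (95% interval -0.24 to 0.05, limma adjusted p = 0.241). Fga stood at 0.05 (95% interval -0.09 to 0.18) and Fgb at 0.01 (95% interval -0.13 to 0.16). The Proc call was the least firm of the 3: it was lost with quantile normalization (-0.179, limma adjusted p = 0.0805) and when any of sham arrays 1, 2 and 4 or ligated ghrelin arrays 3, 4 and 5 was left out, with the highest adjusted p of 0.0821 without ligated ghrelin array 4. With array medians set equal, F2 (-0.194, limma adjusted p = 0.022) and Serpinc1 (-0.219, limma adjusted p = 0.0302) were called lower too, 5 members in all, where 32.1% of all kept probe sets were called lower against 23.5% as deposited.

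**Figure D2:**
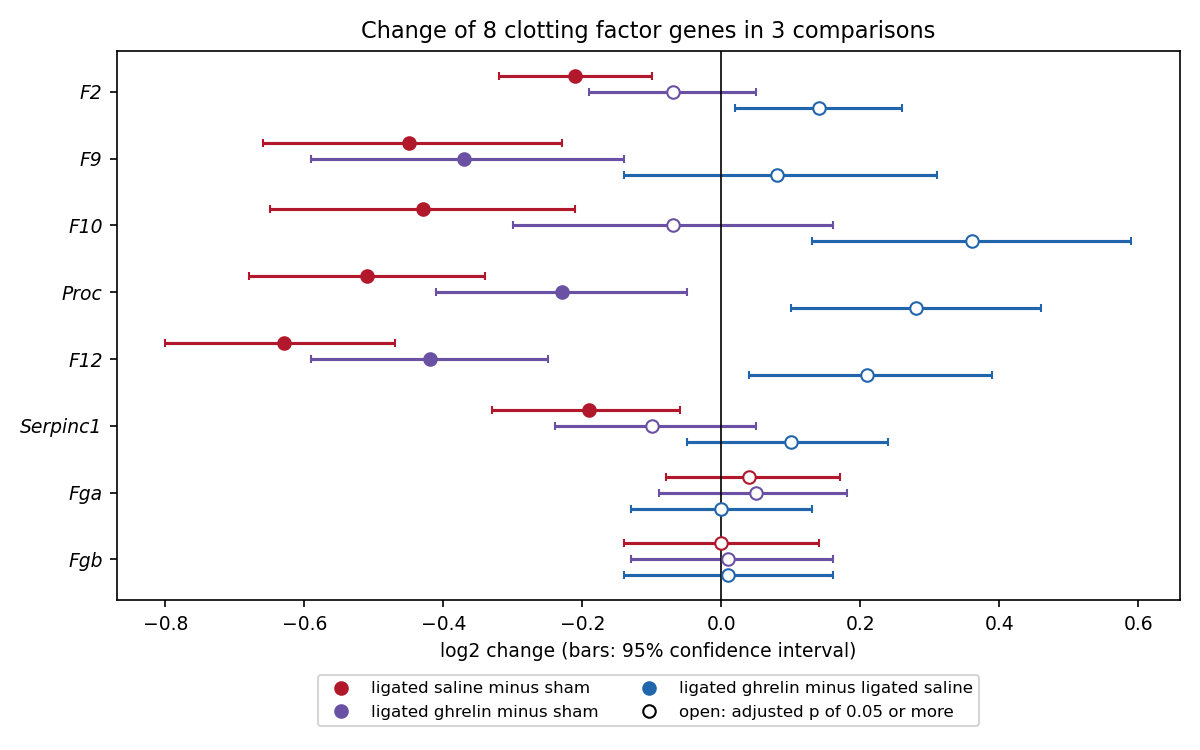
Log2 change of each measured clotting gene in the 3 comparisons, with 95% confidence intervals from limma. Filled points had an adjusted p under 0.05 and open points did not. The ligated saline points of F2, F9, F10, Proc, F12 and Serpinc1 are filled and left of 0, all ghrelin against saline points are open, and the fibrinogen points sit between 0.00 and 0.05.

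Many members also varied together between rats of 1 group, with correlations of the deviations from 0.91 (F2 and F10) down to 0.13 (Proc with Fga and with Serpinc1). This was not particular to clotting genes. Among 9735 other genes F10 ranked 1 for F2, but Serpinc1 ranked 222 for F10 (0.72) and Fgb ranked 1695 for Proc (0.25). The mean of the 8 members, taken relative to sham, was between -0.06 and 0.04 on the sham arrays. It was -0.45, -0.18, -0.47, -0.21, -0.24 and -0.23 on ligated saline arrays 1 to 6 and -0.13, -0.08, -0.15, -0.29 and -0.10 on ligated ghrelin arrays 1 to 5. The lowest ligated saline value of every one of the 8 members came from array 1 or array 3, and the lowest ghrelin value of every member came from array 4. With ligated saline arrays 1 and 3 left out, 5 members were still called lower than sham, all but Serpinc1, where 23% of all kept probe sets were called lower. The same 2 livers had the highest level of cholangiocyte (bile duct cell) markers, at no less than 5.61 and 5.49 log2 units above sham, where the bounds of the other ligated saline livers were 3.87 to 5.27. These are lower bounds because values under the filter level were set to it. Their hepatocyte marker levels were also the lowest of the group, at -0.81 and -0.48, where the others had -0.45 to -0.26. The part of these markers in the clotting gene values was not tested.

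Labels and tissue were checked with Alb, Krt19 and Col1a1. Alb (albumin) was between 15.79 and 15.92 on all arrays. This is the span of the brightest probe set of each array, where a change can be compressed. Krt19, a bile duct keratin, lay between 3.69 and 6.66 in sham and between 9.14 and 10.90 in both ligated groups, and Col1a1, a scar collagen, between 4.49 and 6.36 in sham and between 9.47 and 11.10 in the ligated groups. Of the hepatocyte markers, 6 of the 11 measured were called lower in ligated saline and none higher, with a mean level over the list, relative to sham, of -0.08 to 0.09 in sham, -0.81 to -0.26 in ligated saline and -0.47 to -0.17 in ligated ghrelin. Among all genes 27.2% were called lower and 37.5% higher in ligated saline. All 7 measured cholangiocyte markers were called higher, with lower bounds on the level of 3.87 to 5.61 in ligated saline and 4.16 to 4.86 in ligated ghrelin, against -0.26 to 0.46 in sham. Krt7, Krt19, Cd24, Cftr and Sctr were above the filter level on 1, 4, 3, 0 and 0 sham arrays. They passed the filter, which asks for 5 arrays, only with the ligated groups where they were high. Their calls are therefore given as a description. In sham livers Cftr and Sctr were below the filter level on all arrays, and ligated saline was at least 22.3-fold and 40.3-fold higher. Their part in the fall of the clotting genes was not tested.

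Within groups, the genes that followed each member most closely were found from the deviations of each array from its group mean, over 17 arrays and 9735 other genes. These correlations share arrays, scaling and cell mixture, and are given as a description without a test. F2 followed F10 (r = 0.91) and Abcf3 (0.90), while F10 followed Abcf3 and Chpt1 (both 0.91). F9 was closest to Vtn, which encodes the plasma protein vitronectin (0.95), and Albfm1 (0.91). Vtn also fell after ligation, by a log2 change of -0.43 ± 0.0795 (SE, limma adjusted p = 0.000196). Fga was closest to Serping1, the C1 inhibitor gene (0.91), and C4bpb (0.90), while Fgb was closest to C4bpb and Fgg (both 0.90). Fga and Fgb were correlated at 0.88. Neither Serping1 (0.07) nor C4bpb (0.01) was called between ligated saline and sham. F12 followed Cfhr4 and Bsdc1 (both 0.90) and Serpinc1 followed Nit1 (0.90) and Aadat (0.89). Proc had the weakest neighbours, Orai1 and Nt5e (both 0.77), and its highest correlation with another member was 0.58, with F2.

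Of the other hepatocyte clotting factors and inhibitors, 10 of 15 listed genes were measured. Ligation under saline lowered 4 of them and raised none, with a list median of -0.15. Among all genes 27.2% were called lower and 37.5% higher, and these shares also stand beside the ligation counts of the lists below. Pros1, which encodes protein S, the vitamin K dependent cofactor of protein C, fell from 12.05 ± 0.0637 (SD, n = 6) to 11.48 ± 0.100 (n = 6), a change of -0.57 ± 0.0701 (SE, limma adjusted p = 2.99e-06). With ghrelin it stood at 11.38 ± 0.132 (SD, n = 5), -0.10 from ligated saline (limma adjusted p = 0.443, not called). The differences of Proc and F10, also not called, were above 0, and the contrast between these genes was not tested. Klkb1 (plasma prekallikrein, the partner of factor XII) changed by -0.80 ± 0.174, Serpind1 (heparin cofactor II) by -0.48 ± 0.101 and Apoh (beta-2-glycoprotein I) by -0.22 ± 0.0512 (SE, limma adjusted p = 0.000756, 0.000645 and 0.00114). F5, the factor V gene, was at 0.14 and was not called (limma adjusted p = 0.309). None of the 10 was called between ghrelin and saline.

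Of the genes for the vitamin K cycle and clotting factor maturation, 11 of 12 were measured, and ligation lowered 6 and raised 1, with a list median of -0.41. Ggcx, the carboxylase itself, changed by -0.01 ± 0.108 (SE, limma adjusted p = 0.918). Vkorc1, the vitamin K epoxide reductase that warfarin blocks, changed by -0.41 ± 0.0894 (SE, limma adjusted p = 0.000816), and its relative Vkorc1l1 fell from 8.88 ± 0.192 (SD, n = 6) to 7.75 ± 0.282 (n = 6), or -1.13 ± 0.134 (SE, limma adjusted p = 1.98e-06). Tpst1, a tyrosine sulfotransferase, changed by -0.81 ± 0.12 (SE, limma adjusted p = 1.94e-05). The other genes that fell were Lman1 (-0.69) and Mcfd2 (-0.42), which together carry factors V and VIII out of the endoplasmic reticulum, and Furin (-0.57), a propeptide protease. Asph, the aspartate hydroxylase, rose by 0.37 ± 0.122 (SE, limma adjusted p = 0.014), a call lost with array medians set equal (0.184, limma adjusted p = 0.214). None of the 11 was called between ghrelin and saline.

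Clotting genes of endothelium, macrophages and other cells went the other way. Of 14 listed, 9 were measured, and 8 were higher in ligated saline than in sham, with a list median of 1.31. One of these, F3, passed the filter only through ligated saline arrays, and F8 was not called (0.21, limma adjusted p = 0.462). F2r encodes the thrombin receptor PAR1. It ran from 6.50 to 7.35 in sham and from 8.69 to 10.51 in ligated saline, and stood at 8.83, 8.37, 8.81, 9.02 and 8.67 with ghrelin. Ligation raised it 6.01-fold, a change of 2.59 ± 0.237 (SE, limma adjusted p = 1.24e-07), with no overlap between groups. With ghrelin it was -0.86 ± 0.249 from ligated saline (SE, limma adjusted p = 0.0686), not called, although it passed without ligated saline array 4 (-1.05, limma adjusted p = 0.0234). All 10 stellate cell and myofibroblast markers were also below ligated saline with ghrelin, with a median of -0.63. Of these, 2 were called lower, Col3a1 (-0.68) and Rgs5 (-0.70), where 0.585% of all genes were. The mean level of the 10 markers, with values under the filter level set to it, was 1.75 to 3.15 above sham in ligated saline. It was 1.78 to 2.19 in ligated ghrelin, and ligated saline array 4 was the lowest of its group. The part of these markers in the F2r and F3 values was not tested. Thbd, thrombomodulin, the endothelial cofactor that lets thrombin activate protein C, rose from 4.96 ± 0.429 (SD, n = 6) to 6.52 ± 0.44 (n = 6) and was at 6.50 ± 0.259 (n = 5) with ghrelin. Its change on ligation was 1.56 ± 0.214 (SE, limma adjusted p = 9.22e-06). Procr, the endothelial protein C receptor, rose by 1.66 ± 0.326, Tfpi, the tissue factor pathway inhibitor, by 1.51 ± 0.22, and Vwf, von Willebrand factor, by 1.31 ± 0.306 (SE, limma adjusted p = 0.000319, 1.7e-05 and 0.00136). Tfpi2 (0.87, with 5 of 6 sham and 4 of 5 ghrelin arrays above the filter level) and Gas6 (0.73) were also higher. Of the 7 measured endothelial markers 2 were called higher and 1 lower, while 7 of 8 macrophage and 9 of 10 stellate cell and myofibroblast markers were called higher. Among all genes 37.5% were called higher and 27.2% lower. The part of a changed cell mixture in these clotting genes was not tested.

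**Figure D3:**
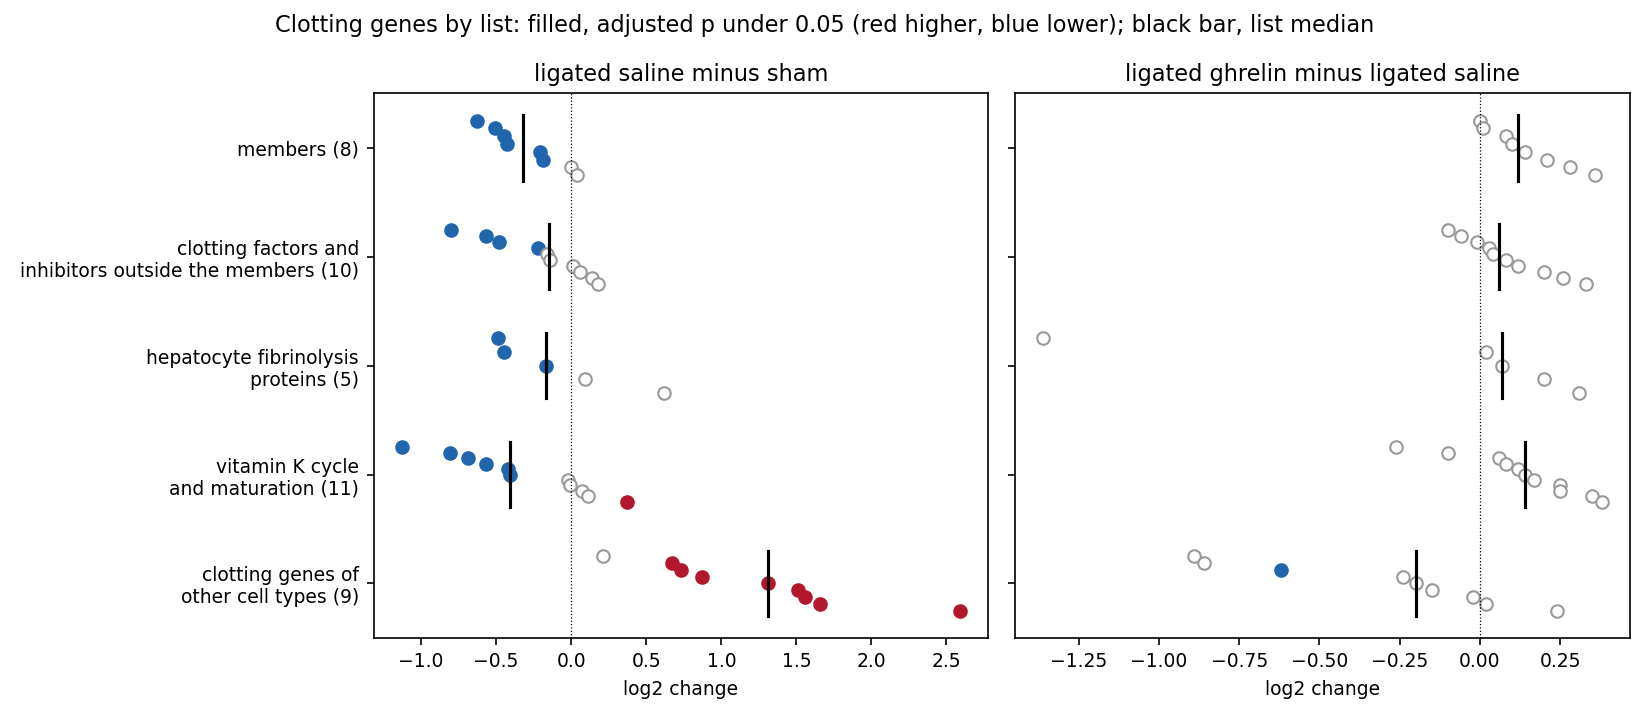
Log2 change of single genes, 1 point each, by clotting gene list, for ligated saline minus sham and for ligated ghrelin minus ligated saline. Filled points were called (red higher, blue lower) and the black bar is the list median. After ligation 8 of 9 clotting genes of other cell types lie right of 0 and are filled, against none of the 8 members, and with ghrelin 1 point, F3, is filled, a gene that passed the filter only through ligated saline arrays.

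F3 encodes tissue factor, which starts clotting when it meets factor VII, and its values are given as a description. It ran from 3.32 to 3.58 in sham and from 3.48 to 4.40 in ligated saline, and stood at 3.41, 3.43, 3.67, 3.51 and 3.51 with ghrelin. These are dim values: all sham and all ghrelin arrays were below the filter level, and 5 of 6 ligated saline arrays were above it. The gene thus passed the filter only through the group where it was high, and its adjusted p between ghrelin and saline, although under 0.05, is not read as a result. With sham and ghrelin values set to the filter level, the ligated saline mean was 1.13-fold higher than either. This is not a strict lower bound, because ligated saline array 4, at 3.48, was itself below that level. The measured change was 0.67 ± 0.123 from sham to ligated saline (SE, limma adjusted p = 0.000168) and -0.62 ± 0.129 from ligated saline to ghrelin (SE, limma adjusted p = 0.0313). The ghrelin call was lost when ligated saline array 1, 3, 5 or 6 or ghrelin array 1, 2 or 5 was left out, with a highest limma adjusted p of 0.0867. It was also lost in a fit of these 2 groups alone (-0.622, limma adjusted p = 0.0699), and F3 did not pass the stricter filter.

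**Figure D4:**
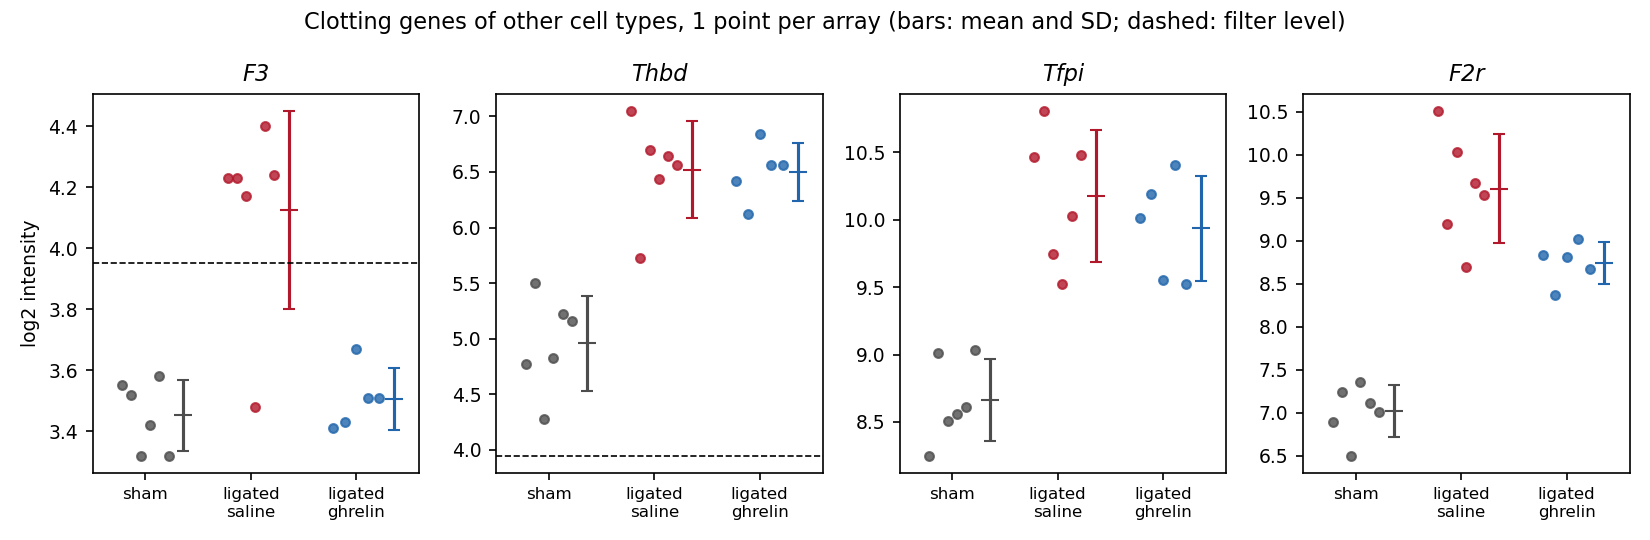
Log2 intensity of F3, Thbd, Tfpi and F2r on each array, with 1 point per rat and bars for the mean and SD of each group; the dashed line is the filter level of 3.95 and each panel has its own axis. F3 is below that line on all sham and ghrelin arrays, while Thbd, Tfpi and F2r are higher in both ligated groups than in sham without overlap.

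Hepatocyte fibrinolysis proteins, which govern clot removal, were measured for all 5 listed genes, and ligation lowered 3 and raised none. These were Serpinf2 (alpha-2-antiplasmin, -0.49 ± 0.095), Hrg (histidine-rich glycoprotein, -0.45 ± 0.134) and Plg (plasminogen, -0.17 ± 0.0598), with limma adjusted p = 0.000309, 0.00748 and 0.0191 (errors are SE). Cpb2, which encodes an inhibitor of fibrinolysis, stood at 0.09 and was not called (limma adjusted p = 0.341).

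Of the hepatocyte transcription factors, 15 of 16 were measured, and ligation lowered 9 and raised 1. Hnf4a, a nuclear receptor that drives many clotting genes, fell from 12.79 ± 0.192 (SD, n = 6) to 11.99 ± 0.177 (n = 6), a change of -0.79 ± 0.097 (SE, limma adjusted p = 2.83e-06). With ghrelin it stood at 12.21, 12.35, 12.40, 12.39 and 12.36, above every ligated saline array and below every sham array. The difference of 0.35 ± 0.102 from ligated saline was not called (SE, limma adjusted p = 0.0714) and passed only with array medians set equal (0.417, limma adjusted p = 0.0433). Dbp, a clock-controlled factor, had the largest change of the list, -4.62 ± 0.566 (SE, limma adjusted p = 2.9e-06), and the sources used here do not give the hour at which livers were taken. Cebpa changed by -1.61 ± 0.243 (SE, limma adjusted p = 2.57e-05) and Cebpd, the C/EBP member known from the acute phase, by 1.71 ± 0.231 (SE, limma adjusted p = 7.89e-06).

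Of 15 interleukin-6 and acute phase genes 13 were measured, and ligation raised 9 and lowered 2, with a median of 0.22. Lbp (lipopolysaccharide binding protein) rose from 11.96 ± 0.711 (SD, n = 6) to 14.11 ± 0.203 (n = 6), a change of 2.15 ± 0.244, and Lcn2 (lipocalin 2) by 6.70 ± 0.902 (SE, limma adjusted p = 1.24e-06 and 7.71e-06). Lcn2 varied widely in sham, from 4.26 to 10.22 (SD 2.63, n = 6), against 12.42 to 14.87 in ligated saline. Il6r, the interleukin-6 receptor gene, changed by -1.52 ± 0.192 (SE, limma adjusted p = 4.05e-06) and Crp by -0.44 ± 0.139 (SE, limma adjusted p = 0.0124). The Crp call was lost with ligated saline arrays 1 and 3 left out (-0.27, limma adjusted p = 0.105). Other plasma proteins of hepatocytes were mixed: of 19 measured of 22 listed, 9 were lower and 1 higher. Serpina6 (corticosteroid binding globulin) changed by -2.05 ± 0.225, Fetub (fetuin B) by -0.89 ± 0.11 and complement gene C5 by 0.70 ± 0.119 (SE, limma adjusted p = 8.37e-07, 3.3e-06 and 8.94e-05), while Alb was at -0.05 and not called (limma adjusted p = 0.445). Alb lay at the top of the array range, where a change can be compressed. None of the acute phase genes, plasma proteins or transcription factors was called between ghrelin and saline.

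The scaling of the arrays bears on the counts after ligation. The median log2 change of all kept probe sets from sham to ligated saline was 0.04 as deposited, -0.11 after quantile normalization and -0.15 once the arrays had equal medians. The share of calls that were higher was 55.7%, 42% and 39%, in that order. For ghrelin against saline that share was 59.2%, 67.3% and 80.4%, and for ligated ghrelin against sham 56%, 43.8% and 43.1%. F9, F10, Proc and F12 were called lower than sham in ligated saline under all 3 scalings. With quantile normalization these were the only members called lower. The share of all kept probe sets called lower was 27.3% as deposited, 39% after quantile normalization and 40.4% with equal medians.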

How the data were processed

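Total RNA from 17 rat livers was amplified, biotin-labelled and hybridized, 1 array per rat. The authors deposited 1 GCRMA intensity per probe set and array, per the submitters' processing notes; the GCRMA version is not given in the sources used here. These linear intensities were taken to log2 with no pseudocount. Groups came from the source labels and array numbers from accession order.

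Of 31042 probe sets, 15965 passed the filter. Symbols came from the platform annotation. Group means were fitted with limma 3.58.1 (lmFit, eBayes) in R 4.3.3 with no covariate, and p-values were adjusted by Benjamini-Hochberg. The code was tested on simulated data. Arrays within a group correlated at 0.988 to 0.995, and 0 pairs were identical. The number of arrays limits the precision.

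Members and lists were chosen with earlier results of these data known. By rule the text names all members, in each list the 2 genes with the lowest p per direction after ligation and those called with ghrelin, genes of counts of 5 or fewer, and the 2 closest genes of each member. Further list genes were named for their role, with values known. Alternatives were other scalings, filters, a pseudocount, another probe set, other eBayes settings, fits of 2 groups and leaving out each array.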

Additional observations from a re-analysis of the deposited data

Results flagged for a closer look

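Among 27 groups of values, each a gene in a group of 5 or 6 arrays, 2 held an array set apart from the rest of its group. Chance flags about 1 in 20 such groups. F9 in ligated ghrelin array 4 was 13.1 on the log2 scale, below the next lowest array at 13.4, and this array was also the lowest of its group for all 8 members. F3, the tissue factor gene, was 3.48 in ligated saline array 4, where the next lowest array had 4.17.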

How the results depend on the processing

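No paired analysis was possible because array numbers run across the groups and pair no rats. The brightest probe set of each measured member was above the filter level on all arrays. Dim signal limits F3, which the stricter filter removes, and Tfpi2 and 6 of the 7 cholangiocyte markers, which were under that level on some or all sham arrays. The stellate cell and myofibroblast markers Acta2, Des, Pdgfrb and Lum were also under it on some sham arrays. Dbp was above it on only 4 of 5 ghrelin arrays. The falls of F9, F10, Proc and F12 after ligation kept their call in all 25 alternatives run for each. In these settings the share of all tested probe sets called lower ran from 23% to 52.2%. With array medians set equal, 1 member was called higher with ghrelin than with saline (Proc), where 3.08% of all kept probe sets were, and 5 were called lower in ligated ghrelin than in sham, where 32.1% were. Leaving out 1 array gave 0 to 1 member higher with ghrelin than saline. With the lowest-mean probe set of each gene, 1 member (Fga, 0.52) was higher in ligated ghrelin than in sham.

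Values that changed sign were not called in the deposited scaling, and the cause was not tested. With quantile normalization, F2 was 0.0536 and Serpinc1 0.0094 in ligated ghrelin minus sham. With medians set equal, ligated saline minus sham was -0.145 for Fga, -0.187 for Fgb, -0.134 for Fgg and -0.0448 for F5. In the same setting ligated ghrelin minus sham was -0.0751 for Fga, -0.108 for Fgb and -0.0802 for Fgg, and Fgg was 0.0535 in ghrelin minus saline. With ligated saline arrays 1 and 3 left out, chosen after seeing the data, ghrelin minus saline was -0.065 for F9, -0.0398 for Fga and -0.0517 for Fgb, and Ggcx was 0.0082 in ligated saline minus sham. Leaving out 1 array at a time, ghrelin minus saline ran from -0.0032 to 0.151 for F9, -0.02 to 0.0299 for Fga, -0.0304 to 0.0387 for Fgb and -0.0395 to 0.007 for Fgg. Ligated saline minus sham ran from -0.0207 to 0.0429 for Fgb and -0.0658 to 0.0852 for Ggcx, and ligated ghrelin minus sham from -0.004 to 0.0412 for Fgb.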

Other observations

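Platelet and megakaryocyte markers did not move in 1 direction. Of 6 listed genes 3 were measured: Pf4, platelet factor 4, was 1.04 ± 0.301 higher in ligated saline than in sham (SE, limma adjusted p = 0.00676), Itgb3, integrin beta 3, was 0.94 ± 0.142 higher (SE, limma adjusted p = 2.65e-05), and Itga2b, its platelet partner integrin alpha IIb, changed by -0.63 ± 0.178 (SE, limma adjusted p = 0.00546). None was called between ghrelin and saline. A2m, the acute phase protease inhibitor alpha-2-macroglobulin, varied more between rats than any member, from 7.68 to 10.76 in sham, 7.80 to 10.84 in ligated saline and 7.45 to 9.05 in ligated ghrelin, and was not called in any comparison.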
